A study of Mus musculus with 4 samples.

Results

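The mitotic G2/M genes are 36 of the 24561 gene symbols on an Agilent mouse array, chosen by name as cyclins, kinases, kinetochore proteins, spindle motors and cytokinesis factors that cells use between late G2 and the end of division. All 36 were found, on 56 probes. Where a gene had more than 1 probe, the brightest over the 4 arrays was taken. RNA came from 4 stable sublines of L1210, a mouse lymphocytic leukemia line of the DBA strain background (subline 212), grown in RPMI medium with serum. L1210-control was infected with control lentivirus, and L1210-Fbxw11a, L1210-Fbxw11c and L1210-Fbxw11d with lentivirus that carries 1 Fbxw11 transcript variant each. Variant a is the full-length form, variant c lacks exon 2, and variant d lacks exons 2 and 3. All 4 lines were sorted for the GFP of the virus, so all carry the virus, and each is a single sorted population, with 1 array per line. Without replicate arrays, no difference between lines can be tested, and no p-value is given. The 3 variant lines are named below by their variant alone.

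Fbxw11 (β-TrCP2) is the substrate receptor of an SCF ubiquitin ligase, an enzyme complex that marks proteins for destruction. Among the known substrates of the β-TrCP proteins are Wee1, the kinase that holds Cdk1 inactive, Cdc25a, the phosphatase that activates it, and Fbxo5 (Emi1), an inhibitor of the anaphase-promoting complex. The G2/M genes are transcribed late in the cell cycle under the control of B-Myb, the MuvB complex and Foxm1, through a promoter element called the CHR, often next to CCAAT boxes. In an asynchronous culture, more cells in G2 and mitosis and more RNA per such cell both raise these transcripts, and a bulk array cannot tell them apart. The study compared the variant lines with the control to follow what Fbxw11 does to gene expression and proliferation, and it used a fold change of 2 as its threshold.

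Most matched promoters of the members held the letters of these elements. RefSeq promoters (GRCm38.p6, 250 bases before to 50 after the start) were matched for 31 of the 36, all but Incenp, Aurkb, Kif20a, Ccna2 and Tpx2. The letters TTTGAA, the core of the CHR, were looked for on both strands and stood in 23 of the 31 promoters (74.2%), against 20.2% of the promoters of all 27025 genes in that table. CCAAT, on both strands, stood in 24 of the 31 (77.4%), against 41.1% of all. Both stood in 20 of the 31 (64.5%), against 7.97% of all. Matches of the 2 motifs can share at most 1 end base. Cdk1, Cdc20 and Kif11 are shown because their CHR letters lie upstream of the start, and Ccnb1 because the 300-base window has 2 CCAAT boxes and no TTTGAA. Each line is the 120 bases that end just before the start, 5′ to 3′ on the gene's strand, and capitals mark TTTGAA and CCAAT or their reverse complements TTCAAA and ATTGG.
Cdk1, chr10:69352913-69353032, minus strand: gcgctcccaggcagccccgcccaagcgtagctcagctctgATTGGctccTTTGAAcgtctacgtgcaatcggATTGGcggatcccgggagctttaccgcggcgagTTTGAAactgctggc
Cdc20, chr4:118437344-118437463, minus strand: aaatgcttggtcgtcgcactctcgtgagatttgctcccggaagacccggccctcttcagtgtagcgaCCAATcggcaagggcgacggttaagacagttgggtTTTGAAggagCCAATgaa
Kif11, chr19:37376262-37376381, plus strand: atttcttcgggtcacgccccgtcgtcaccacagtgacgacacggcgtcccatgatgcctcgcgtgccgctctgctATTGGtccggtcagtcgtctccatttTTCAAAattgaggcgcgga
Ccnb1, chr13:100786487-100786606, minus strand: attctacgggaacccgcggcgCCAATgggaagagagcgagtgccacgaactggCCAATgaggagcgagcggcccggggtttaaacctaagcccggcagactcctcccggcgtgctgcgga
Among genes of DNA replication and the G1/S transition, which are transcribed earlier in the cycle, TTTGAA stood in 4 of the 25 matched promoters (16.0%) and CCAAT in 64.0%. Among other spindle and cytokinesis genes, the shares were close to those of the members, with TTTGAA in 13 of 19 matched promoters (68.4%), CCAAT in 68.4% and both in 57.9%. A match is a description of the letters only.

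Every one of the 36 members was detected well above background on each array. Signals are given in units of the L1210-control array, after each array was scaled by its 75th percentile. The percentiles were 620.2 to 672.5 for L1210-control, Fbxw11a and Fbxw11c, whose arrays share slide 1, and 954.2 for Fbxw11d, whose array was the only one on slide 2, so that slide and variant cannot be told apart there. Probes for Fbxw11 itself, 2 in number, had log2 ratios to L1210-control of 0.21 and 0.31 in Fbxw11a, 0.22 and 0.27 in Fbxw11c, and 0.18 and 0.03 in Fbxw11d, and whether these probes lie in the delivered sequence was not tested. Of marker lists for other cells, 5 of 10 B lineage genes, 6 of 10 T lineage genes and 7 of 10 myeloid genes passed the background flag on each array. The defining genes Ebf1, Ms4a1 and Cd79b of B cells and Cd3d and Cd3g of T cells were not, on any array. The summed signal of the B lineage list ran from 417 to 540 over the 4 lines, that of the T lineage list from 4581 to 4991, that of the myeloid list from 18140 to 21589 and that of the fibroblast list from 189162 to 204224. Of the fibroblast list, 6 of 10 genes passed on each array. In L1210-control, Vim (158713) and Fn1 (33062) made up nearly all of its sum of 192242. Col1a1 had 44.4 there, and Pdgfrb passed on no array. Of 5 pan-leukocyte genes, 4 passed on each array, with Ptprc at 42.9 in L1210-control. The part of other cells in the results was not tested.

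No member reached a 2-fold difference from L1210-control in any variant line. Of all genes tested, 4.53% reached it in either direction in Fbxw11a, 3.98% in Fbxw11c and 5.83% in Fbxw11d. Smaller differences had a direction. In Fbxw11a, 20 members were higher than in L1210-control and 16 lower, where 51.3% of all genes were higher, with a median log2 ratio of 0.03, beside 0.01 over all genes. In Fbxw11c, 35 of the 36 were higher, where 53.2% of all genes were, with a median log2 ratio of 0.24 (1.18-fold), beside 0.02 over all genes. In Fbxw11d, 35 of the 36 were higher, where 52.6% of all genes were, with a median of 0.34 (1.26-fold), beside 0.02 over all genes. The member that was not higher in both lines was Aurkb.

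**Figure D1:**
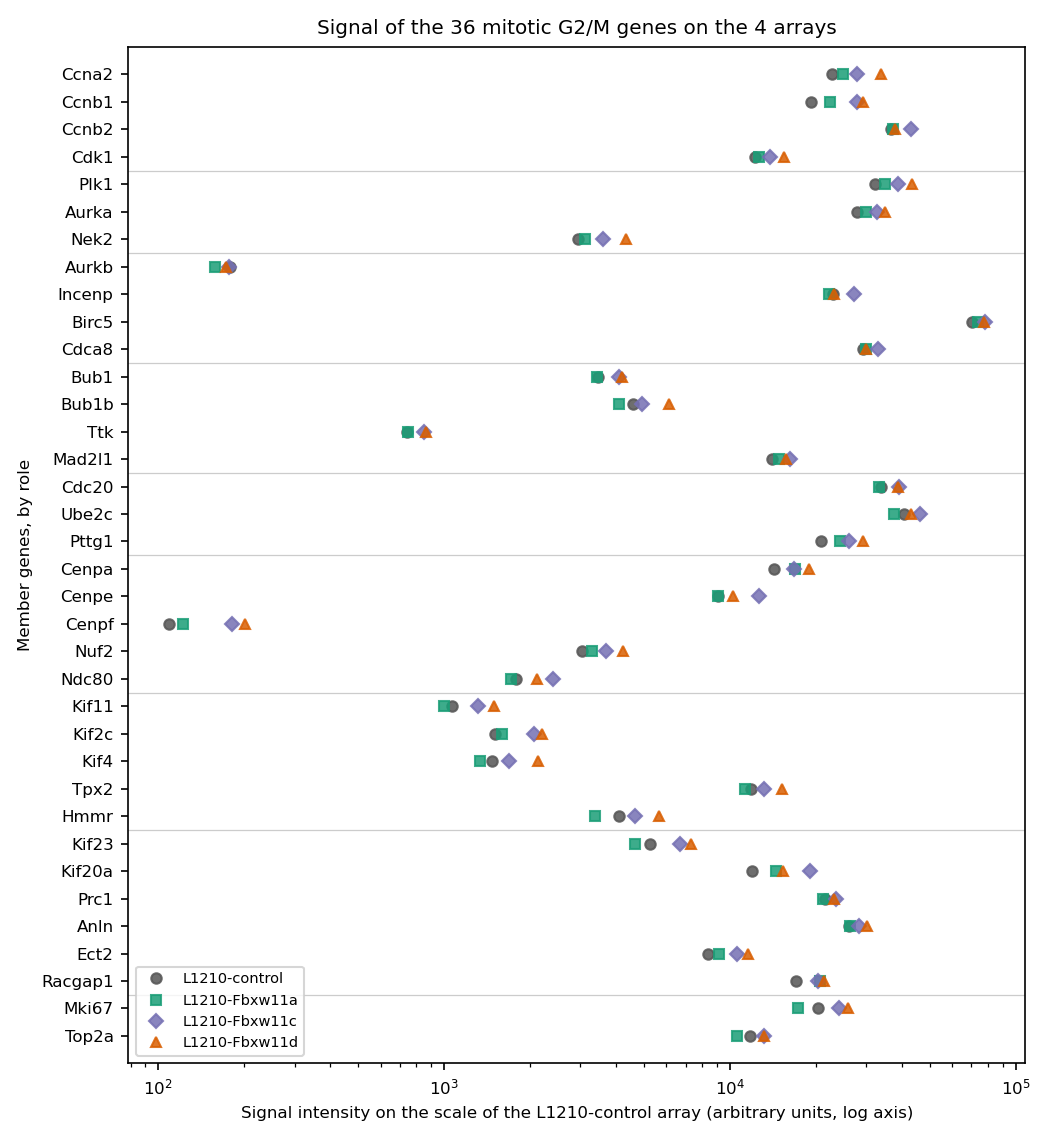
Signal intensity of the 36 mitotic G2/M genes (rows, grouped by role with grey lines) on the 4 arrays, on a log axis in arbitrary units of the L1210-control array; each point is 1 array. The Fbxw11c and Fbxw11d points lie to the right of L1210-control in all rows but Aurkb.

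At a lower threshold, a signal at least 25% above the control, 0 members passed in Fbxw11a, where 13.0% of all genes did. In Fbxw11c 8 members passed, where 11.2% of all genes did, and in Fbxw11d 21, where 16.1% did. No member was lower by the same factor in any line, where 10.8% of all genes were lower in Fbxw11a, 11.9% in Fbxw11c and 16.8% in Fbxw11d. The members are abundant transcripts, and 33 of them had a mean signal of 1000 or more. Over the 7690 genes at that level the median log2 ratios were 0.01, 0.04 and 0.07 in Fbxw11a, Fbxw11c and Fbxw11d. Of those genes, 53.5%, 60.4% and 63.0% were higher than in L1210-control in the 3 lines. Of the 33 bright members, 18, 33 and 33 were. The 3 comparisons share the single control array, so its error enters all of them.

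The variant lines can also be set against each other. Compared with Fbxw11c on the same slide, Fbxw11a was lower for 34 of the 36 members, where 51.8% of all genes were lower, with a median log2 difference of -0.22. Cenpa and Racgap1 were the exceptions, by log2 differences of 0.02 and 0.03. Both are smaller than the median SD of a ratio of 2 spots, 0.10 for this comparison (described below). The second Racgap1 probe was lower in Fbxw11a, at 9911 against 10602 in Fbxw11c. Fbxw11d was above Fbxw11a for 35 members, where 50.2% of all genes were higher, with a median difference of 0.29. Between Fbxw11d and Fbxw11c, 24 members were higher and 12 lower in Fbxw11d, where 50.2% of all genes were higher, with a median difference of 0.09. Fbxw11d had the highest signal of the 4 lines for 24 members, Fbxw11c for 11 and L1210-control for 1. The lowest signal was in L1210-control for 20 members and in Fbxw11a for 16.

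The precision of a single probe bounds what these differences can carry. Most probes have 1 spot, and 399 probes printed on 10 spots each gave the spread between spots of 1 array. From this, the SD of a ratio of 2 spots was estimated for each line's ratio to L1210-control, at the probe's brightness. For most members it was 0.09 on the log2 scale in Fbxw11a, 0.08 in Fbxw11c and 0.11 in Fbxw11d, whose array had the widest spread between spots. For the dim probes of Aurkb and Cenpf it was 0.15, 0.14 and 0.17. In Fbxw11a, 12 members were higher by at least this error, 9 lower and 15 within it, where 27.7% of the 16245 genes detected on every array were higher and 24.8% lower. In Fbxw11c, 35 members were higher by at least the error, where 31.8% of those genes were. In Fbxw11d, 30 were, where 34.8% of those genes were. By their brightest probes, the 6 within the error were Ccnb2, Aurkb, Incenp, Cdca8, Ube2c and Prc1, the last a microtubule bundler of the midzone. This error covers printing and scanning but no difference between cultures or labellings. Bub1, a spindle checkpoint kinase, is the member with 10 spots. Its signal was 3460 ± 82.4 in L1210-control (SD over 9 spots, from 3343 to 3624), and 3443 ± 122 in Fbxw11a (10 spots, from 3258 to 3638). In Fbxw11c it was 4094 ± 183 (10 spots, from 3812 to 4396) and in Fbxw11d 4217 ± 271 (10 spots, from 3678 to 4520). No spot of Fbxw11c or Fbxw11d was as low as the highest spot of L1210-control or Fbxw11a.

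The cyclins and Cdk1 form the engine of mitotic entry, with cyclin A2 active from S phase and the B cyclins at mitosis. By their brightest probes, all 4 were higher than L1210-control in Fbxw11c and Fbxw11d, with median log2 ratios of 0.26 and 0.45. In Fbxw11a the median was 0.09, with Ccnb2 and Cdk1 within the spot error, and the direction depended on the probe: further probes of Ccnb1 had log2 ratios of -0.14 and 0.00 there, and those of Cdk1 -0.02 and -0.17. Ccnb1 had signals of 19275 in L1210-control, 22475 in Fbxw11a, 27748 in Fbxw11c and 29122 in Fbxw11d, a 1.44-fold ratio in Fbxw11c and 1.51-fold in Fbxw11d. Fbxw11c and Fbxw11d lay above both other lines. Ccnb2 had signals of 36502, 37223, 42847 and 37737 in the same order. For Ccnb2 only Fbxw11c stood above L1210-control by more than the spot error. Ccna2 and Cdk1 had log2 ratios of 0.58 and 0.33 in Fbxw11d.

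The kinases of mitotic entry and the centrosome all followed the order L1210-control, Fbxw11a, Fbxw11c, Fbxw11d from low to high. Plk1, which drives centrosome maturation and helps to switch Cdk1 on, had signals of 32166 in L1210-control, 34870 in Fbxw11a, 38850 in Fbxw11c and 43265 in Fbxw11d. Nek2, which splits the centrosome pair, had signals of 2931, 3124, 3590 and 4338 in that order. The log2 ratios in Fbxw11d were 0.43 for Plk1 and 0.57 for Nek2. Aurka, the Aurora kinase of the spindle poles, had log2 ratios of 0.10, 0.23 and 0.32.

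The chromosomal passenger complex corrects faulty attachments of chromosomes to the spindle, with Aurkb as its kinase and Incenp, Birc5 (survivin) and Cdca8 (borealin) as its scaffold. By their brightest probes, the median log2 ratio of the 4 was 0.16 in Fbxw11c and 0.02 in Fbxw11d, and the value in Fbxw11d depended on the probe. There the second probe of Incenp had a log2 ratio of 0.26 against 0.02 for the brightest, and that of Cdca8 0.29 against 0.03. Birc5 had signals of 70098 in L1210-control, 73939 in Fbxw11a, 77800 in Fbxw11c and 77477 in Fbxw11d. Incenp had signals of 22869, 22164, 27198 and 23100 in the same order. The second Incenp probe had 16531, 16299, 20808 and 19743. Both Incenp probes put Fbxw11c highest, and they disagree on whether Fbxw11d lies with L1210-control or above it. Aurkb (probe at chr11:68865105-68865164, mm9) had signals of 179, 158, 176 and 173, on a dim probe. Its log2 ratio of -0.18 in Fbxw11a was just past the spot error there, and those of -0.02 and -0.05 in the other lines were within it.

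The spindle checkpoint holds anaphase back until every chromosome is attached. Its 4 members had median log2 ratios of 0.00 in Fbxw11a, 0.20 in Fbxw11c and 0.25 in Fbxw11d. Bub1b (BubR1), a part of the inhibitor that the checkpoint makes, had signals of 4568 in L1210-control, 4106 in Fbxw11a, 4933 in Fbxw11c and 6111 in Fbxw11d. Mad2l1, another part of it, had signals of 14040, 14845, 16252 and 15689 in that order. Bub1b was lowest in Fbxw11a and highest in Fbxw11d, and Mad2l1 spanned a narrower range. The checkpoint kinase Ttk had log2 ratios of 0.01, 0.20 and 0.22.

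The anaphase-promoting complex, which the checkpoint restrains, works with the activator Cdc20 and the ubiquitin-conjugating enzyme Ube2c, and destroys the separase inhibitor securin (Pttg1). Ube2c had signals of 40775 in L1210-control, 37551 in Fbxw11a, 46366 in Fbxw11c and 42994 in Fbxw11d. Its second probe had 35400, 32449, 41167 and 42224. In Fbxw11d the log2 ratio was 0.25 on that probe, past the spot error of 0.11, against 0.08 on the brightest. Pttg1 had signals of 20881, 24302, 26017 and 29176 in the same order. By the brightest probes, L1210-control was thus the lowest line for Pttg1, whereas for Ube2c it lay between Fbxw11a and the other 2 lines. The second Pttg1 probe had 914 in L1210-control and 923 in Fbxw11a, a log2 ratio of 0.01 against 0.22 for the brightest. A higher Pttg1 signal in Fbxw11a thus rested on 1 probe. Cdc20 had log2 ratios of -0.02, 0.22 and 0.21.

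The kinetochore group, which ties chromosomes to spindle microtubules, had median log2 ratios of 0.12 in Fbxw11a, 0.44 in Fbxw11c and 0.40 in Fbxw11d. Cenpf, a large protein of the outer kinetochore (probe at chr1:191464978-191465037, mm9), had signals of 109 in L1210-control, 122 in Fbxw11a, 181 in Fbxw11c and 200.4 in Fbxw11d. These are 1.66-fold in Fbxw11c and 1.84-fold in Fbxw11d, the closest of any member to the 2-fold threshold, on a dim probe. Cenpa, the centromeric histone H3 variant, had signals of 14296, 16921, 16723 and 18848 in the same order, so L1210-control was the lowest line. Cenpe, a kinetochore motor, and Ndc80, a microtubule anchor, were highest in Fbxw11c, with log2 ratios there of 0.48 and 0.44, against 0.17 and 0.25 in Fbxw11d. Nuf2, the partner of Ndc80, had log2 ratios of 0.12, 0.28 and 0.48, so its highest line was Fbxw11d.

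The spindle motors and microtubule binders had their highest ratios in Fbxw11d, with a median of 0.49 there, 0.20 in Fbxw11c and -0.09 in Fbxw11a. Kif2c, which takes microtubules apart at centromeres, had signals of 1510 in L1210-control, 1591 in Fbxw11a, 2060 in Fbxw11c and 2203 in Fbxw11d. Tpx2, the activator of Aurka, had signals of 11848, 11309, 13181 and 15194 in the same order. By their brightest probes, all 5 genes of this group were highest in Fbxw11d. The second probe of Tpx2 was highest in Fbxw11c, at 449 against 431 in Fbxw11d, and that of Kif2c had 1387 in Fbxw11c and 1386 in Fbxw11d. Kif11, the motor that pushes the spindle poles apart, had log2 ratios of -0.09, 0.30 and 0.49. Hmmr, a spindle-pole protein that binds hyaluronan at the cell surface, had the lowest ratio of any member in Fbxw11a, -0.28, and 0.47 in Fbxw11d, and Kif4, the chromosome-bound kinesin, had -0.14 and 0.54.

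**Figure D2:**
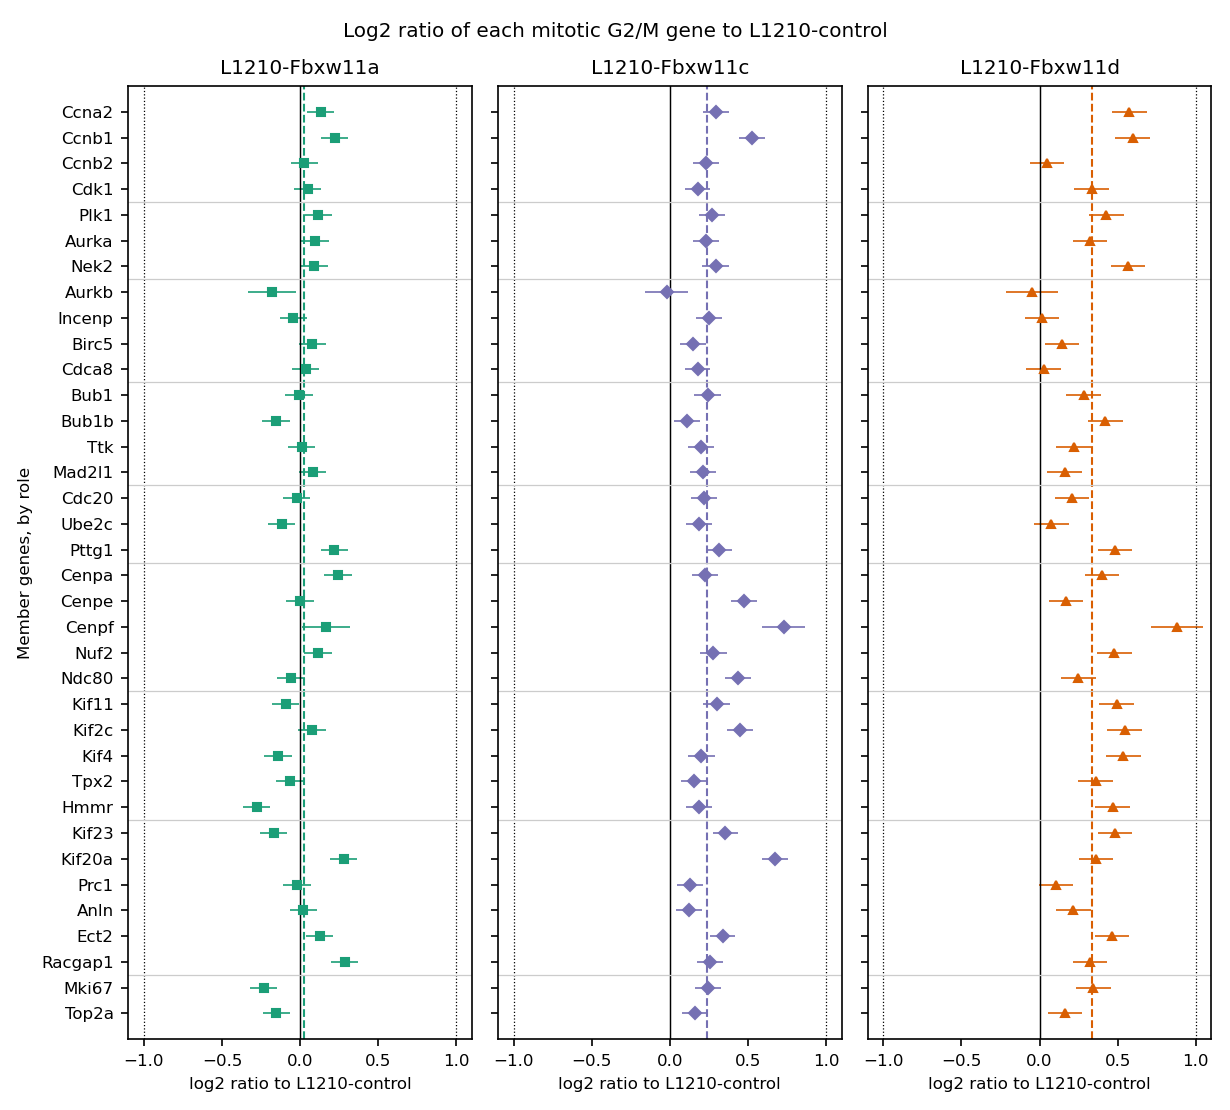
Log2 ratio of each mitotic G2/M gene to L1210-control (x axis) in Fbxw11a, Fbxw11c and Fbxw11d, grouped by role; bars are the SD of a ratio of 2 spots in that comparison, dashed lines the medians of 0.03, 0.24 and 0.34, and dotted lines the 2-fold threshold. Points scatter on both sides of 0 in Fbxw11a and lie above 0 in the other lines except for Aurkb.

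The midzone and cytokinesis genes build the structure between the separating chromosomes and the furrow that divides the cell. All 6 were higher in Fbxw11c and Fbxw11d, with medians of 0.30 and 0.34, and 4 were in Fbxw11a, with a median of 0.07. Kif20a, a kinesin that brings Plk1 to the midzone, had signals of 11978 in L1210-control, 14535 in Fbxw11a, 19096 in Fbxw11c and 15391 in Fbxw11d. Anln (anillin), a scaffold of the contractile ring, had signals of 26011, 26401, 28280 and 30239 in the same order. Kif20a and Cenpf were the 2 members at least 1.5-fold higher in Fbxw11c, where 4.50% of all genes were, and Ccnb1 and Cenpf the 2 in Fbxw11d, where 4.88% were. The log2 ratio of Kif20a in Fbxw11c was 0.67. Kif23 and Racgap1, the 2 proteins of the centralspindlin complex, differed in Fbxw11a, with log2 ratios of -0.17 and 0.29. In Fbxw11c they had 0.36 and 0.26. The size of the Racgap1 ratio depended on the probe. On its second probe it was 0.12 in Fbxw11a, 0.22 in Fbxw11c and 0.10 in Fbxw11d.

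Mki67, the Ki-67 protein that coats mitotic chromosomes and marks cycling cells, had signals of 20352 in L1210-control, 17333 in Fbxw11a, 24144 in Fbxw11c and 25823 in Fbxw11d. Its second probe had 18899, 15410, 21902 and 23545. The 2 probes gave the same order of the 4 lines. Top2a, the topoisomerase that untangles sister chromatids, had log2 ratios of -0.15, 0.16 and 0.16.

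Further probes of the members gave a second reading of the same RNA. Of 20 such probes, 19 passed the background flag on each array, for 14 members. Their median log2 ratio was 0.01 in Fbxw11a, 0.26 in Fbxw11c and 0.26 in Fbxw11d, with 10, 19 and 17 of the 19 above 0. The 2 exceptions in Fbxw11d were dim. The second Ect2 probe (chr3:27020829-27020888, mm9) had signals of 106 in L1210-control and 60.6 in Fbxw11d, a log2 ratio of -0.81, whereas the brightest probe (chr3:26996278-26996337) had 8401 and 11578. Ect2 activates the GTPase RhoA at the furrow. A Cdk1 probe (chr10:68799513-68799572, mm9) had 154 and 120, a log2 ratio of -0.37, against 0.33 for the brightest Cdk1 probe and 0.23 for the other one.

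**Figure D3:**
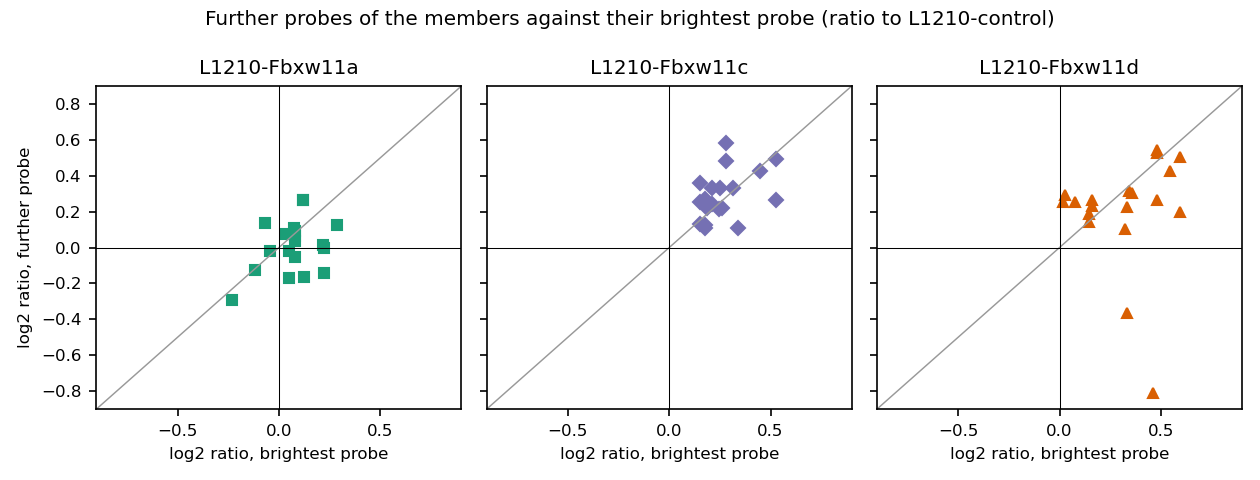
Log2 ratio to L1210-control of 19 further probes of the members (y axis) against that of the brightest probe of the same gene (x axis), by line; the diagonal marks equal ratios. All 19 points lie above 0 in Fbxw11c, 17 in Fbxw11d and 10 in Fbxw11a.

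Other genes of the cell cycle were described by lists written for this purpose. None of their genes reached 2-fold in any line, where 4.53%, 3.98% and 5.83% of all genes did in Fbxw11a, Fbxw11c and Fbxw11d. With the mean of all probes, 1 gene of the anaphase-promoting complex list did in Fbxw11a. The count in Fbxw11d depends on the scaling, because centring on the spike-ins moved the median of all genes there by 0.62. Before such a shift, Foxm1, Fbxo5 and Depdc1a had log2 ratios of 0.68, 0.64 and 0.72. The 24 other spindle and cytokinesis genes came closest to the members, with median log2 ratios of 0.00 in Fbxw11a, 0.26 in Fbxw11c and 0.37 in Fbxw11d, and 11, 23 and 23 of them were higher than in L1210-control. In Fbxw11c their median was 0.19 with the second brightest probe and 0.08 with centring on the spike-ins. The 21 other kinetochore genes had medians of 0.02, 0.13 and 0.12, and the 12 genes of condensin and cohesin release had -0.02, 0.18 and 0.12. These 2 lists were less stable in Fbxw11c. The second brightest probe gave 0.003 and -0.063 there, and centring on the spike-ins gave -0.049 and 0.009. The list of 12 subunits of the anaphase-promoting complex and Ube2s, a ubiquitin-conjugating enzyme that works with it, had medians of -0.03, 0.11 and 0.00. Its sign in Fbxw11c also turned, to -0.058 with the second brightest probe and -0.066 with centring on the spike-ins. Anapc10 was not well above background in Fbxw11a, Fbxw11c or L1210-control and so was not compared in those 2 lines, and in Fbxw11d it entered as a bound of 0.00. Ube2s had the highest log2 ratio of this list in Fbxw11d, 0.36. The 31 genes of DNA replication and the G1/S transition lay on the other side, with medians of -0.14, -0.12 and -0.07, and 7, 7 and 10 of them were higher. The sign of this list held over the scalings tried in Fbxw11a and Fbxw11c, but in Fbxw11d its median was 0.16 with centring on the median of gene probes and 0.55 with centring on the spike-ins. The difference between the lists was not tested, with 1 array per line.

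**Figure D4:**
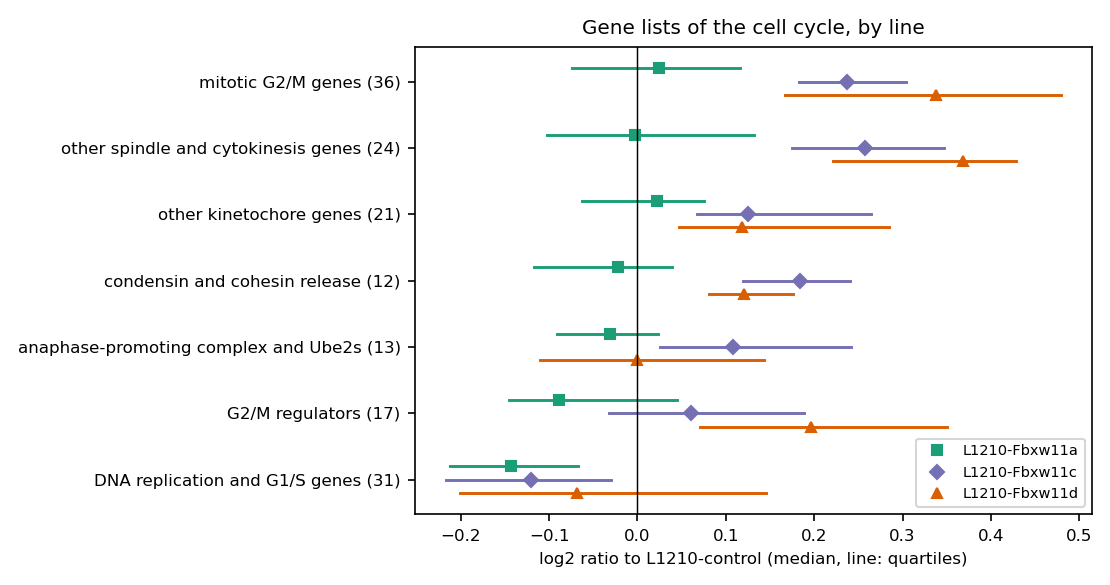
Median log2 ratio to L1210-control of the mitotic G2/M genes and of 6 other lists of the cell cycle (number of genes on the array in brackets), by line; horizontal lines span the quartiles over genes. The members and the other spindle and cytokinesis genes lie between 0.24 and 0.37 in Fbxw11c and Fbxw11d, and the DNA replication and G1/S genes lie below 0 in all 3 lines under this scaling, though not in Fbxw11d with 2 of the other centrings.

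**Figure D5:**
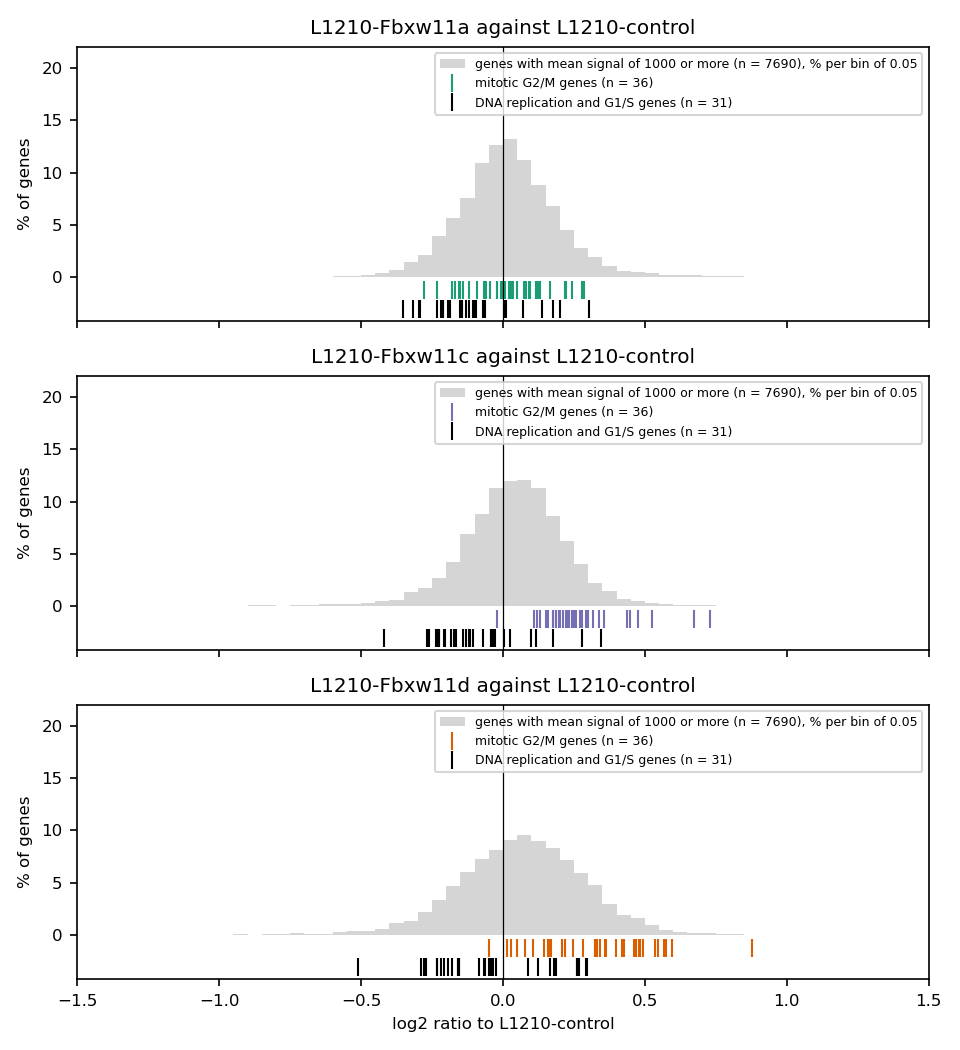
Distribution of log2 ratios to L1210-control (x axis) for genes with a mean signal of 1000 or more (grey, percent of 7690 genes per bin), with 1 tick per gene below for the 36 members (coloured) and the 31 DNA replication and G1/S genes (black). The members centre near the grey peak in Fbxw11a and on its right flank in Fbxw11c and Fbxw11d.

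The 17 regulators of G2/M had median log2 ratios of -0.09 in Fbxw11a, 0.06 in Fbxw11c and 0.20 in Fbxw11d. Of them, 5, 12 and 14 were higher than in L1210-control. These medians depended on the processing. Leaving out spike-in centring, they ran from -0.107 to -0.019 in Fbxw11a, 0.021 to 0.136 in Fbxw11c and -0.004 to 0.421 in Fbxw11d. With spike-in centring the Fbxw11c median was -0.114. Of the subunits and partners of the MuvB complex in this list, Lin9, Lin54 and E2f4 had log2 ratios of 0.17, 0.05 and 0.01 in Fbxw11c, and Lin37, Lin52, Rbl1 and Rbl2 had -0.19, -0.18, -0.12 and -0.27. In Fbxw11d the first 3 had -0.01, -0.13 and 0.20, and the other 4 had 0.35, -0.02, 0.08 and 0.14. Foxm1, a transcription factor of G2/M genes, had signals of 2959 in L1210-control, 3331 in Fbxw11a, 4027 in Fbxw11c and 4756 in Fbxw11d, log2 ratios of 0.17, 0.44 and 0.68. Mybl2 (B-Myb), its partner at these promoters, had log2 ratios of -0.09, 0.11 and 0.07. Foxm1 mRNA thus had the line order of Plk1 and Nek2, and Mybl2 mRNA stayed within 0.11 of the control. Fbxo5, the inhibitor of the anaphase-promoting complex, had signals of 8975, 8895, 10909 and 14001, log2 ratios of -0.01, 0.28 and 0.64. Wee1 had log2 ratios of 0.29, 0.19 and 0.30, so its mRNA was higher in all 3 lines. The phosphatases Cdc25a, Cdc25b and Cdc25c had -0.06, -0.15 and 0.18 in Fbxw11a, 0.06, 0.10 and 0.32 in Fbxw11c, and 0.17, 0.31 and 0.51 in Fbxw11d. Fzr1 (Cdh1), the activator of the anaphase-promoting complex in G1, had -0.23, 0.04 and 0.33. These are mRNA values, and β-TrCP acts on protein stability, which the arrays do not measure.

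The size of the differences depends on how the arrays are scaled, most of all for Fbxw11d. With centring on the labelled RNA spike-ins in place of the 75th percentile, the members' median was -0.07 in Fbxw11a, 0.06 in Fbxw11c and 0.96 in Fbxw11d, and 15 members passed 2-fold in Fbxw11d, where 13.8% of all genes then did. The median of all genes moved with it, by -0.09, -0.17 and 0.62 in the 3 lines, and 11, 29 and 36 members were then higher than in L1210-control, where 34.2%, 23.8% and 89.3% of all genes were. The members' median minus that of all genes moves little with such a shift, and over the scalings and probe choices tried it ran from -0.02 to 0.05 in Fbxw11a, from 0.17 to 0.27 in Fbxw11c and from 0.23 to 0.37 in Fbxw11d.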

How the data were processed

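Total RNA of the 4 lines was labelled with Cy3 and hybridised to 1 Agilent 8x60K mouse array each. The authors deposited the scanner output, a background-subtracted signal intensity per spot (Agilent Feature Extraction, version 9.1 per the labels), and a table of the same intensities with log2 values that they normalized by a method not given in the sources used here, on mm9 coordinates. The median of the deposited log2 values was 5.833 on every array.

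Here, each log2 intensity was taken relative to the 75th percentile of the gene spots on its array. Control spots and 102 to 167 spots per array flagged as outliers were left out, spots of a probe were averaged, and probes needed 0.5 or more of their spots flagged as well above background to count as such. Genes entered a comparison when 1 or both arrays passed, and a ratio against an array that did not pass is a bound. No gene spot was saturated. Calls used 2-fold. Precision is limited by having 1 array per line. All members are reported, with 4 signals for those of highest mean signal and of largest log2 ratio in each of 9 role groups, and a few others (Mki67, Aurkb, Bub1, Ect2, Cdk1) by their values. The second members named beside them, and Hmmr, Kif4, Kif23, Racgap1 and the MuvB partners, were picked after values were seen. The members and all lists were chosen with earlier results of these data known. Alternatives were normexp (limma 3.58.1, offset 50), quantile normalization, other centrings, the deposited values, other filters, thresholds from 25% to 3-fold, and other probe rules. Calls were first tested on simulated data, in Python 3.11.15 with pandas 2.3.3 and numpy 2.4.6. R 4.3.3 ran limma.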

Additional observations from a re-analysis of the deposited data

Results flagged for a closer look

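For 8 members the Fbxw11a array lay below L1210-control and another variant line above it, each by at least the SD of a ratio of 2 spots. This is 22.2% of the members, and 15.5% of the 16245 genes well above background on every array met the same criterion. With 1 array per line, and the same control array in both ratios, the difference between lines was not tested. Log2 ratios in Fbxw11a and Fbxw11d were -0.15 and 0.42 for Bub1b, -0.09 and 0.49 for Kif11, and -0.14 and 0.54 for Kif4. They were -0.28 and 0.47 for Hmmr and -0.17 and 0.48 for Kif23. They were -0.23 and 0.34 for Mki67 and -0.15 and 0.16 for Top2a. For Ube2c the pair was -0.12 in Fbxw11a and 0.18 in Fbxw11c.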

How the results depend on the processing

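Of the values that answer a comparison, 124 stayed within their spread or within 1.5 times the count and 11 moved. Centring on the spike-ins gave 11 members higher in Fbxw11a in place of 20 (34.2% of all genes in place of 51.3%), medians of -0.07, 0.063 and 0.957 in Fbxw11a, Fbxw11c and Fbxw11d, and 15 members at 2-fold in Fbxw11d, beside 13.8% of all genes. Centring on the median of gene probes moved the median of all genes in Fbxw11d by 0.22, and gave a members' median of 0.562 and 1 member at 2-fold in Fbxw11d, beside 5.43% of all genes. At thresholds of 25% and of 1.5-fold, 8 and 2 members were called in Fbxw11c, and 21 and 2 in Fbxw11d. The cause was not tested. Over normexp, quantile normalization, the other 2 centrings on probes and the deposited values, 32 members kept their direction in Fbxw11a (not Bub1, Cdca8, Cenpe and Ttk), 35 in Fbxw11c (not Aurkb) and 33 in Fbxw11d (not Aurkb, Cdca8 and Incenp). The second brightest probe turned 5 of 14 members in Fbxw11a (Ccnb1, Cdk1, Mad2l1, Tpx2 and Ect2), none of 15 in Fbxw11c and 1 of 15 in Fbxw11d (Ect2). The mean of all probes turned Cdk1, Tpx2 and Ect2 in Fbxw11a and Ect2 in Fbxw11d. No paired analysis was possible because each line has 1 array. Spots of dim probes varied more, which limits Aurkb, Cenpf and the dim probes of Ect2 and Cdk1, although all were well above background.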
